A study of Mus musculus with 15 samples.

Results

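The 10 genes described here encode Polycomb proteins: *Ezh2*, *Ezh1*, *Eed*, *Suz12*, *Jarid2* and *Mtf2* of Polycomb repressive complex 2 (PRC2), and *Rnf2*, *Pcgf6*, *Cbx7* and *Kdm2b* of PRC1. They were taken by name from the 48709 genes counted, and all 10 passed the filters on low counts in both time courses. RNA was sequenced from mouse ESCs in N2B27 medium with PD03, an inhibitor of MEK, Chiron, an inhibitor of GSK3, and mLIF, while the transcription factor OCT4 was lost by either of 2 routes. CreER ESCs (Oct4Fl/-; CAG CreER, of mixed 129SV and C57BL/6 strain) were given 500 nM 4-OHT, which activates the Cre recombinase that deletes the floxed *Pou5f1* allele, for 0, 12, 18, 24 or 36 h, with 2 replicate libraries at each time. O4AID ESCs (Oct4-/-; TetOFF Oct4; CAG Oct4AID; CAG Tir1, of 129SV strain, made from the ZHBTc4 line) were given 500 µM IAA, which marks the OCT4 fused to an auxin-inducible degron for degradation, for 0, 1.5, 6, 10 or 24 h, with 1 library at each time. Neither course held a library kept without 4-OHT or IAA for the same hours, so time in culture, the compound and the loss of OCT4 cannot be told apart. O4AID ESCs live on randomly inserted transgenes, with a wild-type *Oct4* transgene kept silent by doxycycline, and are compared with CreER ESCs only as a different line.

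Polycomb proteins keep developmental genes silent. PRC2 methylates histone H3 at K27 through EZH2 or its paralogue EZH1, with EED and SUZ12 as obligate partners, and JARID2 and MTF2 are alternative accessory subunits that guide the complex to CpG islands. PRC1 ubiquitinates histone H2A at K119 through RNF2 (also called RING1B) or RING1, and its other subunits decide where it binds. In ESCs the 2 complexes sit on genes for lineage regulators such as *Gata6*, *Cdx2* and *Pax6*.

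Between 21.7 and 30.8 M (mega) reads were counted per CreER library, and between 40.5 and 48.7 M per O4AID library. Levels are given in CPM, reads per mega-read after TMM scaling over all 15 libraries. In the check of the deletion, *Pou5f1* stood at 321 and 317 CPM in the CreER replicates at 0 h and at 112 and 123 CPM at 36 h (log2 fold change -1.43 ± 0.045 SE, adjusted p = 4.15e-19, edgeR). In O4AID the transcript of the transgene stood at 766 CPM at 0 h and 633 CPM at 24 h, which does not check the loss of the protein. The 6 ESC markers (*Nanog*, *Sox2*, *Esrrb*, *Zfp42*, *Tfcp2l1* and *Dppa5a*) were present in every library, none of them at 0. They summed to 2130 to 2164 CPM at 0 h and 2030 to 2127 CPM at 36 h in CreER, with 3 of 6 higher, and to 6001 CPM at 0 h and 1543 CPM at 24 h in O4AID, with all 6 lower. The 7 trophectoderm markers, none at 0, summed to 256 to 262 CPM at 0 h and 508 to 556 CPM at 36 h in CreER, and to 18.7 and 89.6 CPM at 0 and 24 h in O4AID, with 7 of 7 higher in both. In CreER the 5 primitive endoderm markers summed to 12.8 to 15.3 CPM at 0 h and 33.6 to 35.1 CPM at 36 h. At 36 h, 4 of them were higher and 1 was lower. In O4AID they summed to 9.41 and 37.4 CPM at 0 and 24 h, with 5 of 5 higher. At 1.5 h and at 10 h in O4AID, 1 of the 5 was at 0. The fibroblast markers never summed to over 7.68 CPM. The sums of the trophectoderm and primitive endoderm lists were thus higher at the last time in both lines. The sum of the ESC list was much lower in O4AID and little changed in CreER. The part of these cell types in the results below was not tested. In such bulk libraries, fewer cells of a type and less RNA per cell cannot be told apart.

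The promoters of the 3 core PRC2 genes other than *Ezh1* are shown first, because their levels at the last time were below those at 0 h in both lines. The stretches are from RefSeq (GRCm38.p6), are written 5′ to 3′ on the gene's own strand, lie before the annotated start, and were cut where GENCODE places an untranslated exon of the gene. Capitals mark the letters CCAAT or its reverse complement and the E2F-type letters TTTCCCGC.
*Ezh2*, chr6:47595059-47595183, minus strand, 153 to 29 bases before the start: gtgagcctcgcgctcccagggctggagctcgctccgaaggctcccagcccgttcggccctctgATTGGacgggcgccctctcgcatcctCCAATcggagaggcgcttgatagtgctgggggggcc
*Eed*, chr7:89980984-89981226, minus strand, 250 to 8 bases before the start: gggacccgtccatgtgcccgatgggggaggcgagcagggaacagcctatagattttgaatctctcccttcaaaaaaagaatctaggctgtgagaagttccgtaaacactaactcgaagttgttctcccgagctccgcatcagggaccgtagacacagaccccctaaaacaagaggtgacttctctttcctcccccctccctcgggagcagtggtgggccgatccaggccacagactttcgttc
*Suz12*, chr11:79992856-79993105, plus strand, 250 to 1 bases before the start: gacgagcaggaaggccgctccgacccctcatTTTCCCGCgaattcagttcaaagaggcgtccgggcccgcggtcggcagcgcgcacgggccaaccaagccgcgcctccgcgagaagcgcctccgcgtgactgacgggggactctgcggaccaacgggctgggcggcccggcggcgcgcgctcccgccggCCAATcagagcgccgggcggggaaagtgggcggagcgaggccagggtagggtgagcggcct

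All 10 genes were matched to a RefSeq promoter, 15 starts in total, and 250 bases before each start were searched on both strands for 3 motifs. CCAAT was found in 7 of the 15 promoters (46.7%), which belong to 6 of the 10 genes, against 33.8% of all 32851 promoters. Both *Kdm2b* promoters among the 7 hold the same CCAAT, because their windows overlap, so this site was counted more than once. An E2F-type motif (TTTCCCGC, TTTCGCGC, TTTGCCGC or TTTGGCGC) was found in 1 of the 15, that of *Suz12*, against 1.86% of all promoters. The octamer ATGCAAAT, the letters that POU factors such as OCT4 bind, was found in 0 of the 15, against 1.6% of all promoters. The 250 bases of *Suz12* held 37 CG dinucleotides, those of *Ezh2* 23 and those of *Eed* 12, beside a median of 6 over all promoters. These matches describe letters and not sites.

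In untreated CreER ESCs, the accessory PRC2 genes *Mtf2* and *Jarid2* were the most abundant of the 10 and *Ezh1* the least. Between genes, levels are compared as CPM per kilobase of the gene length in the files. In CreER at 0 h, *Mtf2* stood at 73.4 CPM per kilobase, *Jarid2* at 61.5, *Eed* at 50.9, *Suz12* at 46.3, *Pcgf6* at 42.3, *Rnf2* at 24.3, *Ezh2* at 19.4, *Cbx7* at 18.0, *Kdm2b* at 8.75 and *Ezh1* at 4.55 (means, n = 2). No 2 neighbours in this order overlapped between replicates, although *Cbx7* at 17.7 and 18.2 and *Ezh2* at 18.9 and 19.8 came close. In O4AID at 0 h the order differed, with *Mtf2* at 107, *Suz12* at 63.1, *Rnf2* at 32.8, *Eed* at 25.6, *Pcgf6* at 22.6, *Jarid2* at 20.7, *Ezh2* at 11.7, *Kdm2b* at 10.5, *Ezh1* at 4.91 and *Cbx7* at 3.78 CPM per kilobase. *Jarid2* thus ranked higher in CreER than in O4AID, and *Cbx7* ranked low in both and last in O4AID. There was 1 O4AID library at this time and no test of the difference.

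The question of the CreER course was which mRNAs changed with time after 4-OHT. By 36 h, 9 of the 10 Polycomb genes had fallen and *Ezh1* had risen, while the median log2 fold change was -0.4 over the 10 genes and 0.007 over all 18969 genes tested. The calls came from edgeR's quasi-likelihood test with Benjamini-Hochberg adjustment over all genes, at an adjusted p under 0.05. At 12 h, 0 of the 10 were called in either direction by edgeR and by DESeq2, 3 had an unadjusted p under 0.05, and the share of all genes called was 0.258% higher and 0.137% lower. At 18 h, 5 were called lower and 0 higher, beside 3.79% lower and 4.73% higher over all genes. At 24 h, 6 were called lower and 0 higher, beside 10.6% lower and 11.0% higher. At 36 h, 9 were called lower and 1 higher, beside 17.2% lower and 19.4% higher. The shares are over tested genes of every level and were not matched to the levels of the 10. The labels do not say that replicates came from separate cultures, so these p-values measure only the spread between these samples, and the 4 comparisons share the 0 h libraries.

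**Figure D1:**
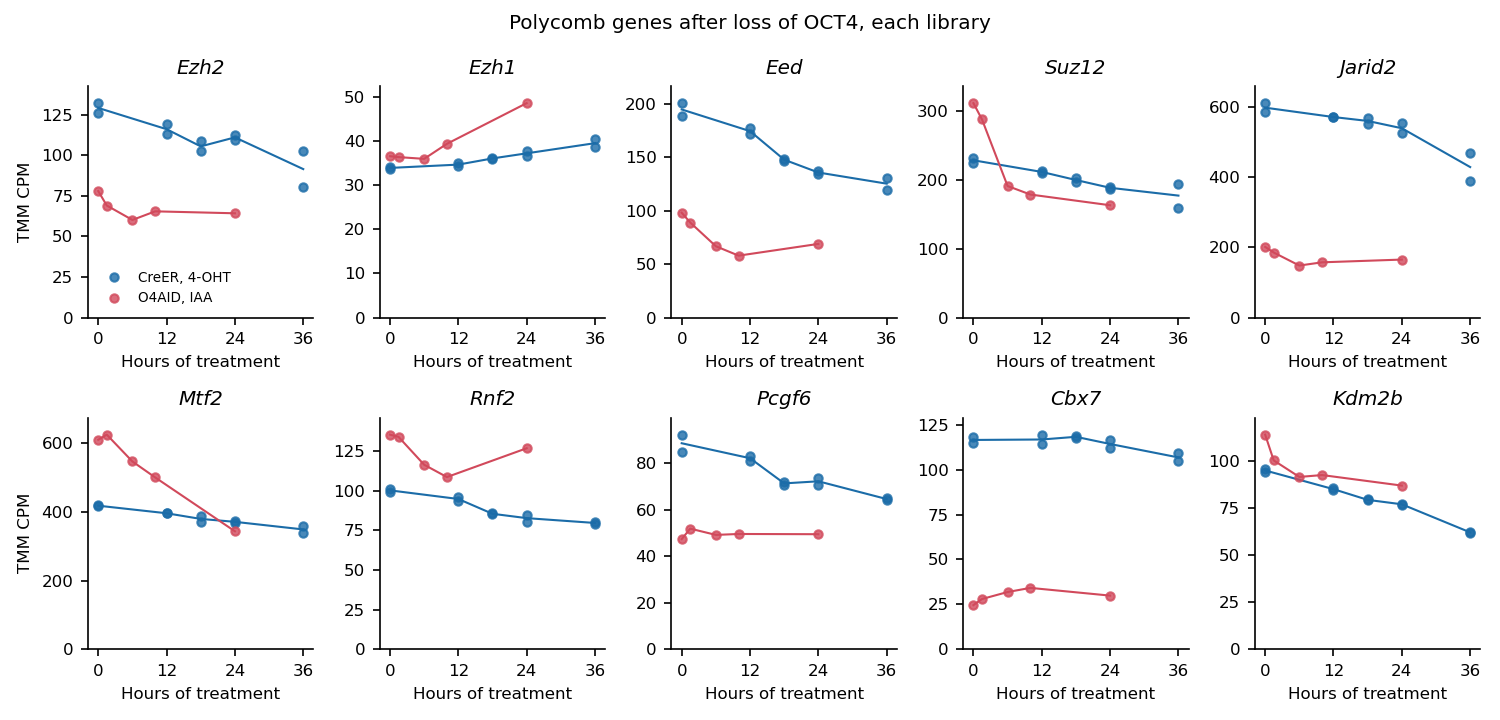
Level of each Polycomb gene in TMM CPM against hours of treatment, with 1 point per library, lines through the means, CreER in blue (2 replicates per time) and O4AID in red (1 library per time). *Eed* fell from 189 and 201 CPM to 131 and 119.8 CPM in CreER, and *Suz12* went from 312 to 163 CPM in O4AID.

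*Eed* (ENSMUSG00000030619, chromosome 7, 89954654 to 89980983, minus strand, GRCm38), whose product reads methylated H3K27 and stimulates EZH2, had the largest fall of the 6 PRC2 genes in CreER at 36 h. Its CreER replicates stood at 189 and 201 CPM at 0 h, 177 and 172 at 12 h, 149 and 147 at 18 h, 134 and 137 at 24 h, and 131 and 119.8 at 36 h. Every treated library lay below both untreated ones. The log2 fold change was -0.16 ± 0.0435 SE at 12 h (adjusted p = 0.124, edgeR), -0.39 ± 0.0439 at 18 h (adjusted p = 7.19e-07, edgeR) and -0.62 ± 0.0447 at 36 h (adjusted p = 8.83e-12, edgeR). At 12 h *Eed* passed the threshold without replicate 1 of 0 h (adjusted p = 0.036, edgeR). Exons of *E230029C05Rik* on the opposite strand share 6.82% of the *Eed* exon bases, and the strand setting of the counting was not stated.

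*Ezh2* (ENSMUSG00000029687, chromosome 6, 47530139 to 47595341, minus strand), the main methyltransferase of dividing ESCs, stood at 126 and 132 CPM at 0 h, 113 and 119.3 at 12 h, 103 and 109 at 18 h, 109.5 and 113 at 24 h, and 103 and 80.3 at 36 h. All treated libraries were below the untreated ones, but replicates differed most at 36 h. Its fall was called at 36 h alone, where it measured -0.48 ± 0.0872 SE on the log2 scale (adjusted p = 0.00149, edgeR), after -0.29 at 18 h (adjusted p = 0.0727, edgeR) and -0.21 at 24 h (adjusted p = 0.111, edgeR). Both earlier times passed the threshold when only the 4 libraries compared were fitted (adjusted p = 0.00193 and 0.00369, edgeR).

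*Ezh1* (ENSMUSG00000006920, chromosome 11, 101191115 to 101226463, minus strand), the paralogue with weaker methyltransferase activity, went the other way. It stood at 33.7 and 34.0 CPM at 0 h, 35.0 and 34.2 at 12 h, 35.8 and 36.2 at 18 h, 37.7 and 36.6 at 24 h, and 40.4 and 38.5 at 36 h. Every treated library lay above both untreated ones. The log2 fold change at 36 h was 0.23 ± 0.0582 SE (adjusted p = 0.00226, edgeR), which became 0.148 with total-count scaling and was then not called (adjusted p = 0.0613, edgeR). As a result the ratio of *Ezh2* to *Ezh1* reads per length, which needs no scaling between libraries, went from 4.18 and 4.33 at 0 h to 2.83 and 2.32 at 36 h.

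*Suz12* (ENSMUSG00000017548, chromosome 11, 79993106 to 80034123, plus strand), the scaffold of PRC2, stood at 225 and 232 CPM at 0 h, 210.5 and 213 at 12 h, 203 and 198 at 18 h, 191 and 187 at 24 h, and 195 and 160.2 at 36 h. It was below the untreated level in every treated library. The log2 fold change was -0.27 ± 0.0593 SE at 24 h (adjusted p = 0.00347, edgeR) and -0.35 ± 0.06 at 36 h (adjusted p = 0.000163, edgeR). The 24 h call was lost when replicate 2 of 0 h was left out (-0.252, adjusted p = 0.0557, edgeR). Leaving out replicate 1 or 2 of 36 h made the 36 h value -0.496 or -0.231, and both were called.

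*Jarid2* (ENSMUSG00000038518, chromosome 13, 44729474 to 44921643, plus strand) and *Mtf2* (ENSMUSG00000029267, chromosome 5, 108065674 to 108109004, plus strand) mark the alternative forms of PRC2. *Jarid2* stood at 585 and 611 CPM at 0 h, 570.5 and 572 at 12 h, 569 and 551 at 18 h, 525 and 554 at 24 h, and 469 and 388 at 36 h. Most of its fall came after 24 h, with a log2 fold change against 0 h of -0.14 ± 0.0624 SE at 24 h (adjusted p = 0.13, edgeR) and -0.47 ± 0.0629 at 36 h (adjusted p = 4.47e-05, edgeR). *Mtf2* stood at 416 and 420.5 CPM at 0 h, 396 and 397 at 12 h, 372 and 388 at 18 h, 375 and 368 at 24 h, and 360 and 338 at 36 h. Its fall was small and steady, at -0.13 ± 0.0392 at 18 h (adjusted p = 0.031, edgeR), -0.17 ± 0.0392 at 24 h (adjusted p = 0.00298, edgeR) and -0.25 ± 0.0395 at 36 h (adjusted p = 1.13e-05, edgeR). The 18 h call was lost without replicate 2 of 0 h or without either 18 h replicate (adjusted p = 0.116, 0.311 and 0.0766, edgeR), and the 24 h call without replicate 2 of 24 h (adjusted p = 0.0529, edgeR).

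Among PRC1 genes, *Kdm2b*, *Pcgf6* and *Rnf2* fell and *Cbx7* barely moved. *Kdm2b* (ENSMUSG00000029475, chromosome 5, 122870665 to 122989823, minus strand), whose CXXC domain brings a variant PRC1 to unmethylated CpG islands, stood at 94.3 and 95.8 CPM at 0 h, 84.4 and 85.8 at 12 h, 79.2 and 79.6 at 18 h, 77.4 and 76.7 at 24 h, and 62.4 and 61.8 at 36 h. Replicates differed little and no treated library reached the untreated level. The log2 fold change was -0.25 ± 0.0445 SE at 18 h (adjusted p = 0.000369, edgeR) and -0.6 ± 0.0462 at 36 h (adjusted p = 3.52e-11, edgeR). Exons of other genes share 8.74% of the *Kdm2b* exon bases, and 0 to 6.93% of those of the other 9 genes.

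*Pcgf6* (ENSMUSG00000025050, chromosome 19, 47033619 to 47050845, minus strand) defines the variant PRC1 that also holds MGA, L3MBTL2 and E2F6 and silences germline genes in ESCs. It stood at 85.0 and 92.4 CPM at 0 h, 83.3 and 81.2 at 12 h, 70.7 and 72.1 at 18 h, 70.7 and 73.9 at 24 h, and 64.9 and 64.4 at 36 h. The groups from 12 h on did not overlap with 0 h, but the 12 h change was not called (-0.11 ± 0.0482 SE, adjusted p = 0.519, edgeR). The log2 fold change was -0.31 ± 0.0487 at 18 h (adjusted p = 0.000103, edgeR) and -0.45 ± 0.0499 at 36 h (adjusted p = 4.3e-08, edgeR).

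*Rnf2* (ENSMUSG00000026484, chromosome 1, 151458004 to 151500955, minus strand), the ubiquitin ligase of PRC1, stood at 101 and 99.5 CPM at 0 h, 93.8 and 95.9 at 12 h, 85.8 and 85.2 at 18 h, 85.0 and 80.5 at 24 h, and 80.5 and 78.9 at 36 h. Its log2 fold change was -0.23 ± 0.0455 SE at 18 h (adjusted p = 0.0018, edgeR) and -0.32 ± 0.0463 at 36 h (adjusted p = 3.1e-06, edgeR). *Cbx7* (ENSMUSG00000053411, chromosome 15, 79915807 to 79971119, minus strand), a chromodomain subunit of PRC1, stood at 118 and 115 CPM at 0 h, 114 and 119.5 at 12 h, 118 ± 0.985 (mean ± SD) at 18 h, 112 and 117 at 24 h, and 105 and 109 at 36 h. Replicates overlapped those of 0 h until 24 h. The value of -0.11 ± 0.0452 at 36 h was just past the threshold (adjusted p = 0.0477, edgeR), and it was not called without replicate 1 of 0 h (-0.092, adjusted p = 0.183, edgeR), without replicate 1 of 36 h (-0.077, adjusted p = 0.287, edgeR) or with DESeq2 (adjusted p = 0.0859), while total-count scaling made it -0.2.

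Between 24 and 36 h, *Jarid2* (log2 fold change -0.33 ± 0.0629 SE, adjusted p = 0.00312, edgeR), *Kdm2b* (-0.31 ± 0.0466, adjusted p = 3.09e-05, edgeR) and *Pcgf6* (-0.16 ± 0.0504, adjusted p = 0.0356, edgeR) fell further, *Jarid2* at -0.2 without replicate 2 of 36 h. This is 3 of the 10 called lower and 0 higher, beside 6.55% lower and 8.13% higher over all genes. *Pcgf6* lost its call in this step when any 1 of the 4 libraries compared was left out (adjusted p between 0.0811 and 0.227, edgeR) and with DESeq2 (adjusted p = 0.0897). *Ezh2* (-0.27, adjusted p = 0.0701, edgeR), *Eed* (-0.11, adjusted p = 0.108, edgeR) and *Suz12* (-0.08, adjusted p = 0.413, edgeR) were called when replicate 1 of 36 h was left out (adjusted p = 1.28e-06, 0.0266 and 0.00147, edgeR), and the count of genes called then went from 3 to 5. Without replicate 2 of 36 h the same 3 values were -0.112, -0.052 and 0.046, and none of them was called. Total-count scaling moved the median of all genes in this step from 0.004 to -0.103 and called 9 of the 10, *Pcgf6* among them at -0.264.

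In O4AID the question was how soon mRNAs changed once the protein was degraded. With 1 library per time there was no test, and a gene was counted when it was past 1.5-fold from 0 h on the scale of log2(CPM + 1). Intervals are 95% and cover counting error only. At 1.5 h, 0 of the 10 were past this fold, beside 0.533% lower and 0.266% higher of the 13885 genes with a mean of at least 1 CPM. At 6 h *Suz12* was past it and lower, beside 2.79% lower and 2.51% higher. At 10 h *Suz12* and *Eed* were lower, beside 4.67% lower and 4.93% higher. At 24 h *Suz12* and *Mtf2* were lower, beside 11.5% lower and 11.2% higher. The median log2 change at 24 h was -0.28 over the 10 and -0.05 over all genes. Total-count scaling made these medians -0.148 and 0.07, and the 1.5 h library as the reference made that of the 10 -0.134.

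*Suz12* stood at 312, 289, 191, 179 and 163 CPM at 0, 1.5, 6, 10 and 24 h. The step from 1.5 to 6 h was the widest, and the log2 change against 0 h was -0.7 at 6 h (interval -0.74 to -0.66) and -0.93 at 24 h (interval -0.97 to -0.89), or 1.9-fold lower. *Eed* stood at 98.2, 89.0, 66.8, 58.0 and 69.0 CPM, lowest at 10 h with a log2 change of -0.75 (interval -0.82 to -0.68) and at -0.5 (interval -0.57 to -0.44) at 24 h. *Mtf2* stood at 611, 626, 547, 501 and 344 CPM. Unlike *Suz12*, it kept near its untreated level at 6 h (log2 change -0.16, interval -0.18 to -0.13, or -0.079 with total-count scaling) and reached -0.83 (interval -0.86 to -0.8) at 24 h.

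*Ezh2* stood at 78.0, 69.1, 60.2, 65.5 and 64.3 CPM, with its lowest value at 6 h (log2 change -0.37, interval -0.44 to -0.29, or -0.195 against the 1.5 h library). *Ezh1* stood at 36.5, 36.3, 35.9, 39.3 and 48.5 CPM and reached a log2 change of 0.4 (interval 0.31 to 0.49) at 24 h. The ratio of *Ezh2* to *Ezh1* reads per length was 2.38, 2.12, 1.87, 1.85 and 1.48 in order of time. *Jarid2* stood at 201, 185, 148, 157 and 165 CPM, also lowest at 6 h (log2 change -0.44, interval -0.49 to -0.39). *Kdm2b* stood at 114, 100.4, 91.6, 92.6 and 87.0 CPM, with a log2 change of -0.39 (interval -0.45 to -0.33) at 24 h, which became -0.256 with total-count scaling and -0.206 against the 1.5 h library. All of these stayed within 1.5-fold.

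*Rnf2*, *Pcgf6* and *Cbx7* also stayed within 1.5-fold at each time. *Rnf2* stood at 135, 134, 116, 109 and 127 CPM, so that its log2 change was -0.32 (interval -0.37 to -0.26) at 10 h and -0.09 (interval -0.15 to -0.04) at 24 h, the latter 0.038 with total-count scaling. *Pcgf6* stood at 47.4, 51.9, 49.2, 49.6 and 49.5 CPM, with a log2 change of 0.06 (interval -0.02 to 0.14) at 24 h. *Cbx7* stood at 24.5, 27.9, 31.8, 34.1 and 29.8 CPM and was above 0 h at every time, most at 10 h (log2 change 0.46, interval 0.35 to 0.57, or 0.28 against the 1.5 h library).

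**Figure D2:**
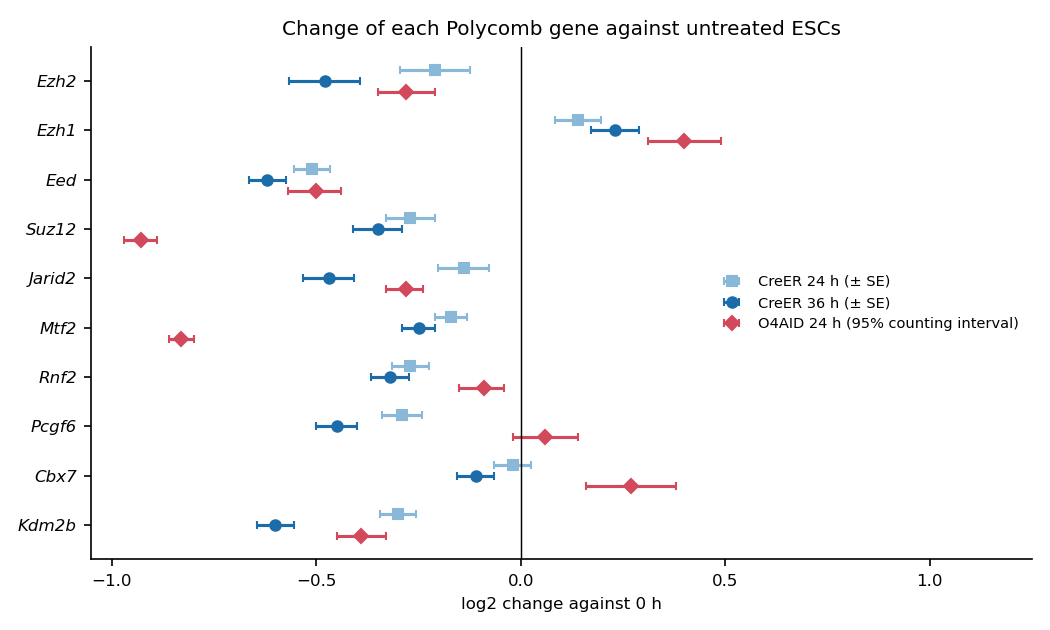
Log2 change of each Polycomb gene against 0 h, in CreER at 24 and 36 h (edgeR fold change with SE, 2 replicates per time) and in O4AID at 24 h (ratio of CPM + 1 with a 95% counting interval, 1 library per time). *Ezh1* is right of 0 in all 3 comparisons, and *Suz12* and *Mtf2* lie furthest left in O4AID at -0.93 and -0.83. *Pcgf6* and *Cbx7* lie left of 0 in CreER and right of it in O4AID. Of these, *Cbx7* in CreER at 24 h (-0.02) and *Pcgf6* in O4AID (0.06, interval -0.02 to 0.14) lie close to 0.

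The 2 courses share the 24 h time. For *Eed* the log2 changes at 24 h were -0.53 and -0.5 in the CreER replicates and -0.5 in O4AID, and for *Kdm2b* they were -0.29, -0.31 and -0.39. For *Suz12* they were -0.26, -0.29 and -0.93, and for *Mtf2* -0.16, -0.18 and -0.83. *Pcgf6* was lower in both CreER replicates (-0.32 and -0.26) and at 0.06 in O4AID. These values come from different lines, agents and kinetics, and the differences were not tested.

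**Figure D3:**
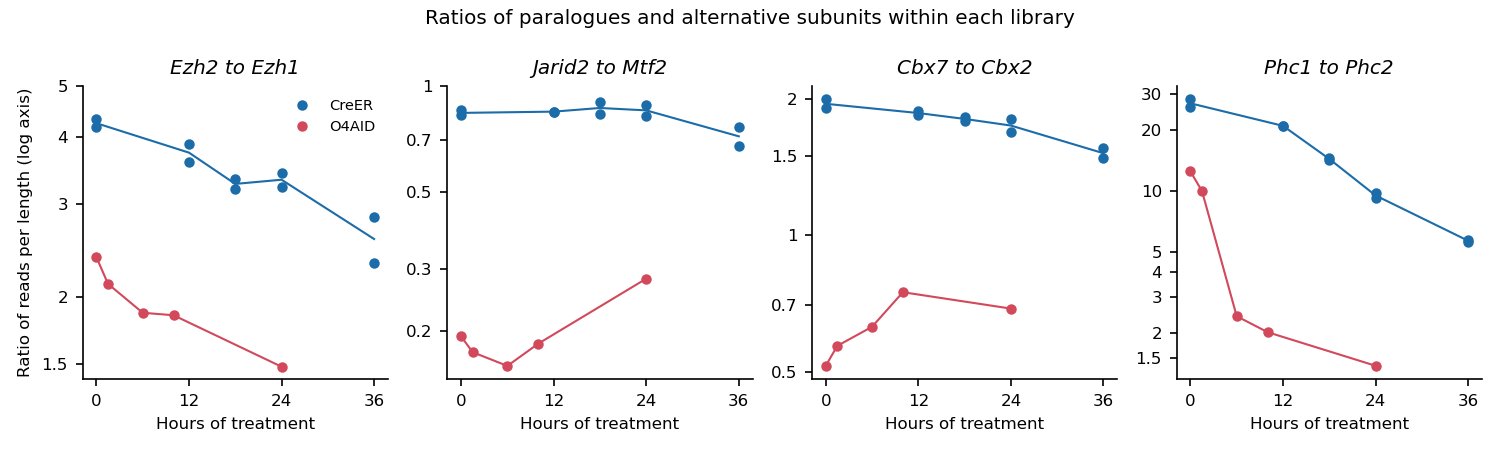
Ratios of read counts per gene length within each library, on log axes, against hours of treatment, with 1 point per library and lines through the means. *Ezh2* to *Ezh1* declines in both lines, *Jarid2* to *Mtf2* and *Cbx7* to *Cbx2* differ between the lines at every time, and *Phc1* to *Phc2* goes from 25.8 and 28.3 to 5.75 and 5.64 in CreER and from 12.5 to 1.38 in O4AID.

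Ratios of alternative subunits within a library differed between the lines at the mRNA level, with 1 O4AID library per time and no test. *Jarid2* to *Mtf2* was 0.824 and 0.852 in CreER at 0 h and 0.764 and 0.673 at 36 h, and it was 0.193 at 0 h and 0.282 at 24 h in O4AID. *Cbx7* to *Cbx2*, both chromodomain subunits of PRC1, was 1.91 and 2.0 in CreER at 0 h and 1.48 and 1.56 at 36 h. In O4AID it was 0.515 at 0 h and 0.689 at 24 h, so *Cbx2* exceeded *Cbx7* per length in each O4AID library.

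The gene with the largest sum of absolute log2 changes in CreER at 36 h and O4AID at 24 h was *Suz12*, at 1.28. Among 15234 genes with a mean of at least 1 CPM, those whose log2(CPM + 1) ran most like it over the 15 libraries, after centring each line on its mean, were *Rbpj* (Pearson r = 0.991), *Usp48* (r = 0.983), *Terf1* (r = 0.982), *Zfp654* (r = 0.981) and *Gabpa* (r = 0.976). *Suz12* went from 312 to 163 CPM over the O4AID libraries and lay between 160.2 and 232 CPM in those of CreER. The r values thus lean on the O4AID course, with 1 library per time. The libraries share lines and times, so this is a description of likeness with no test.

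The other 42 Polycomb genes were 8 of PRC2, 28 of PRC1 and 6 for erasers of the marks, and all 42 were tested in CreER. Against 0 h, 0 were called in either direction at 12 h by edgeR (6 at an unadjusted p under 0.05) and by DESeq2, 4 higher and 4 lower at 18 h, 6 higher and 10 lower at 24 h, and 11 higher and 12 lower at 36 h. The shares of all genes called higher and lower were 4.73% and 3.79% at 18 h, 11.0% and 10.6% at 24 h, and 19.4% and 17.2% at 36 h. Their median log2 fold change at 36 h was 0.053, against 0.007 over all genes and -0.4 over the 10 genes above. From 24 to 36 h, 7 rose and 6 fell, beside 8.13% and 6.55% over all genes. These counts leaned on single libraries: the 8 called at 18 h became 3 without either 18 h replicate and 4 without replicate 2 of 0 h, the 16 at 24 h became 10 without replicate 1 of 24 h, and the 13 from 24 to 36 h became 8 and 6 without replicates 1 and 2 of 24 h. In O4AID 41 passed the level filter, of which 1 was past 1.5-fold higher and 2 lower at 6 h, 1 and 2 at 10 h, and 2 and 4 at 24 h. Over all genes 2.51% were past it higher and 2.79% lower at 6 h, 4.93% and 4.67% at 10 h, and 11.2% and 11.5% at 24 h, so the O4AID counts at 10 and 24 h were near or below those shares.

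*Phc1* and *Phc2*, Polyhomeotic genes of canonical PRC1, changed in opposite directions in CreER. *Phc1* had a mean of 391 ± 23.9 CPM (SD, n = 2) in CreER at 0 h and 161 ± 3.9 at 36 h (log2 fold change -1.26 ± 0.0437 SE, adjusted p = 2.5e-18, edgeR). In O4AID it stood at 323, 282, 100.4, 84.1 and 70.7 CPM in order of time, 3.2-fold lower at 6 h and 4.53-fold lower at 24 h. Its paralogue *Phc2* went from 19.3 ± 2.44 to 37.8 ± 0.391 CPM in CreER (log2 fold change 0.98 ± 0.0737, adjusted p = 2.16e-11, edgeR) and from 34.6 to 68.3 CPM in O4AID. The ratio of *Phc1* to *Phc2* was added after these values were seen. Per length it was 25.8 and 28.3 in CreER at 0 h, 14.2 and 14.6 at 18 h and 5.75 and 5.64 at 36 h, and 12.5, 10.0, 2.42, 2.02 and 1.38 in O4AID.

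Of PRC2 accessory genes, *Phf19*, a relative of *Mtf2*, rose in CreER from 15.4 ± 0.634 to 40.6 ± 0.849 CPM (SD, n = 2; log2 fold change 1.41 ± 0.0716 SE, adjusted p = 7.3e-15, edgeR) and stood at 3.96 and 4.04 CPM at 0 and 24 h in O4AID. *Rbbp7*, a histone chaperone subunit, rose by 0.27 in CreER (adjusted p = 6.8e-06, edgeR) and went from 249.6 to 412 CPM in O4AID. Of PRC1, *Pcgf5* (0.9), *Bmi1* (0.6) and the corepressor gene *Bcor* (0.47) rose in CreER at 36 h and *L3mbtl2*, the partner of *Pcgf6*, fell (-0.46, adjusted p = 7.59e-10, edgeR). In O4AID at 24 h their log2 changes were -0.24, 0.24, 0.23 and -0.4. *Wdr5* (-1.02), *Rybp* (-0.9) and *Pcgf1* (-0.72) were past 1.5-fold lower in O4AID at 24 h. *Rybp* in CreER had a log2 fold change of 0.07 (adjusted p = 0.552, edgeR), and *Wdr5* fell by 0.14 (adjusted p = 0.00647, edgeR).

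Among the 6 genes for erasers, 3 fell and 0 rose in CreER at 36 h, beside 17.2% lower and 19.4% higher over all genes. They were *Asxl3* (log2 fold change -1.07, from 5.04 to 2.36 CPM) and *Asxl1* (-0.38), partners of the H2AK119 deubiquitinase BAP1, and the H3K27 demethylase gene *Kdm6b* (-0.35, adjusted p = 0.00671, edgeR). *Asxl3* held 1 read at 0 h and 7 at 24 h in O4AID and was below the level filter there. Of the other 5, 0 were past 1.5-fold in O4AID at 24 h, beside 11.5% lower and 11.2% higher over all genes. *Asxl1* was at -0.29 (interval -0.35 to -0.24) there and *Kdm6b* at 0.29 (interval 0.17 to 0.4), so *Kdm6b* differed in direction between the lines.

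Classical Polycomb target genes in ESCs moved in both directions. Of 20 such lineage and cell-cycle genes, 15 were tested in CreER, the rest being too low. They gave 0 calls at 12 h by edgeR (2 at an unadjusted p under 0.05) and by DESeq2, 2 higher and 2 lower at 18 h, 5 and 2 at 24 h, and 7 and 2 at 36 h, with a median log2 fold change of 0.645 at 36 h. Over all genes 4.73% were higher and 3.79% lower at 18 h, 11.0% and 10.6% at 24 h, and 19.4% and 17.2% at 36 h. Among the 7 called higher at 36 h was *Nkx2-5* (1.17, adjusted p = 0.031, edgeR), with 0.305 CPM at 0 h and 0.691 CPM at 36 h. So low a gene may have passed the filter only through its 36 h libraries. From 24 to 36 h, 5 rose and 2 fell, beside 8.13% and 6.55% over all genes. *Hand1* (2.71, from 9.13 to 58.8 CPM), *Gata6* (2.61, from 0.776 to 4.67 CPM), *Cdx2* (2.43, from 2.67 to 14.2 CPM) and *Eomes* (1.69, from 12.5 to 39.8 CPM), regulators of extraembryonic lineages, rose most. *Pax6* (-1.69, from 10.8 to 3.33 CPM) and *Olig2* (-1.4, from 11.8 to 4.41 CPM), neural regulators, fell. *Hand1*, *Cdx2* and *Gata3* also stand in the list of trophectoderm markers and *Gata4*, *Gata6* and *Sox17* in that of primitive endoderm.

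In O4AID 10 of the 20 target genes passed the level filter. At 1.5 h 0 were past 1.5-fold, at 6 h 1 was higher, at 10 h 4 were higher and 1 lower, and at 24 h 6 were higher and 1 lower, with a median of 0.801. Over all genes 2.51% were higher and 2.79% lower at 6 h, 4.93% and 4.67% at 10 h, and 11.2% and 11.5% at 24 h. *Gata6* (log2 change 1.92, interval 1.74 to 2.1), *Pax6* (1.52, interval 1.32 to 1.73), *Cdx2* (1.0, interval 0.71 to 1.27) and *Lhx2* (0.96, interval 0.72 to 1.19) were the furthest above 0 h and *Sox1* (-1.8, interval -2.03 to -1.56) was below it. *Pax6* thus fell in CreER and was higher in O4AID, and *Sox1*, which rose in CreER at 36 h (0.74, adjusted p = 0.000267, edgeR), was lower in O4AID. *Eomes* was at 8.22 and 8.54 CPM at 0 and 24 h in O4AID.

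**Figure D4:**
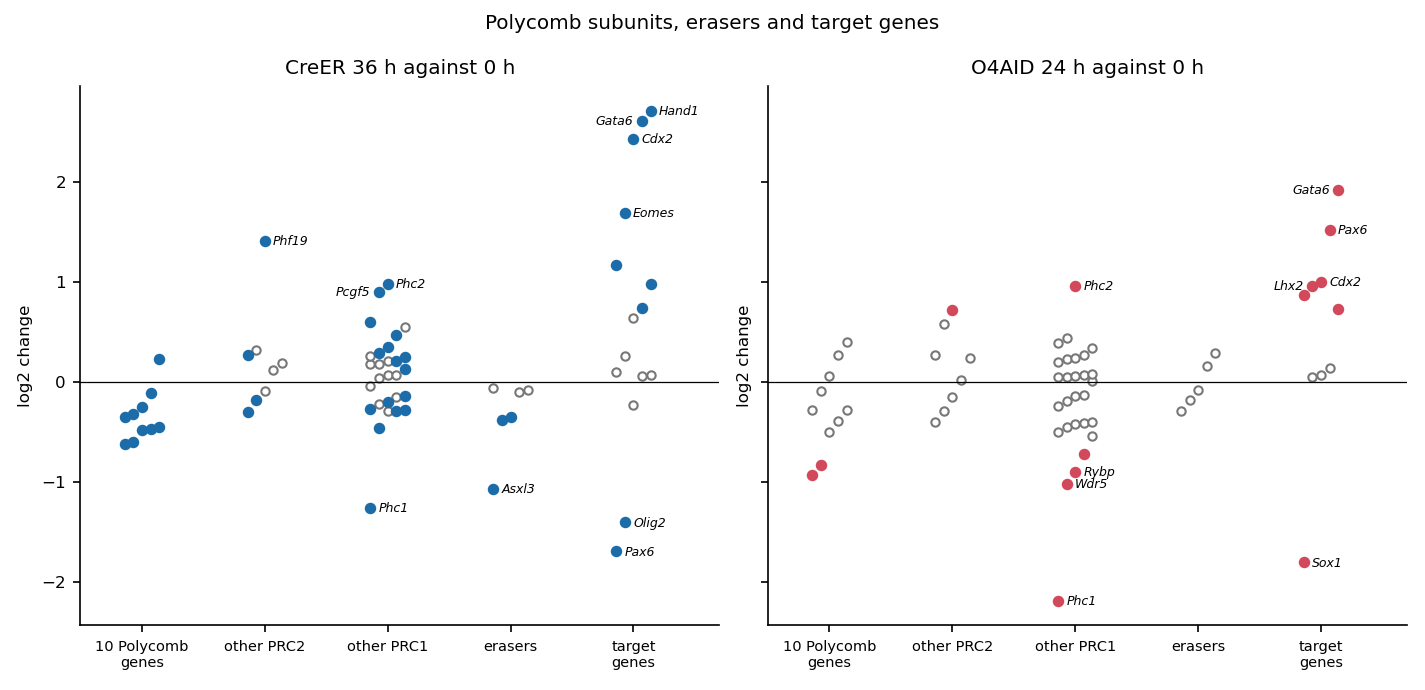
Log2 change of the 10 Polycomb genes, the other PRC2, PRC1 and eraser genes and the Polycomb target genes, in CreER at 36 h (left) and O4AID at 24 h (right), with 1 point per gene that passed the filter. Filled points are called (CreER, adjusted p under 0.05) or past 1.5-fold (O4AID), and open points are neither. In CreER 9 of the 10 genes lie below 0, while the other lists lie on both sides, apart from the 6 eraser genes, and *Phc1* lies lowest of the Polycomb subunits in both panels.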

How the data were processed

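RNA from mouse ESCs was sequenced by the authors after rRNA depletion with a directional paired-end kit. Per the labels and the study's methods, reads were trimmed with Trim Galore 0.1.4, aligned to GRCm38/mm10 with TopHat2 2.1.0 and counted per Ensembl gene with featureCounts 1.5.1. Strand and multimapping settings are not given in the sources used here. The deposited per-library values are raw read counts. The authors' TMM-scaled table was not used here.

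The 92 spike-in entries held 0 reads and were left out. Entries with no symbol took 0.0412% of reads and were tested with the rest. Replicates differed by 3.02 to 7.0 chi-square units per degree of freedom and were kept as separate libraries. The 10 CreER libraries were fitted together in edgeR 4.0.16 (R 4.3.3) with TMM factors, filterByExpr and robust quasi-likelihood dispersion, and called at an adjusted p under 0.05. The fold-change prior count was 0.125, and each SE is the log2 fold change divided by the root of F. O4AID changes are ratios of TMM CPM plus a pseudocount of 1, with Wilson intervals of each share (SciPy 1.17.1) carried to the ratio, over genes with a mean of at least 1 CPM. Reads carry no molecular identifiers, so intervals cover counting error only. Promoter letters came from RefSeq (GRCm38.p6). The fits were tried on simulated counts with the same dispersion for every gene, and the intervals on draws with counting error only. These draws check the calculation and not the spread of the real replicates.

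The genes, lists and tests were chosen with earlier results of these data known. Named were the 10 genes, *Pou5f1*, and by rule the other Polycomb genes called in CreER at 36 h (up to 5 per direction by size) or past 1.5-fold in O4AID at 24 h (up to 4), the target genes likewise (up to 4 each), and 5 genes most like *Suz12*. *Sox1* in CreER, *Wdr5* in CreER, *Nkx2-5*, *Gata3*, *Gata4* and *Sox17* were named outside the rule after their values were seen. Alternatives were RLE and total-count scaling, other filters, DESeq2 1.42.0, a replicate block, fewer libraries, other pseudocounts (0.1 and 5), a fold of 2 and another reference library.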

Additional observations from a re-analysis of the deposited data

Results flagged for a closer look

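*Pcgf6* at 24 h was the only 1 of the 10 genes for which both CreER replicates lay on one side of 0 h and the O4AID library on the other. Its log2 change was -0.32 and -0.26 in CreER and 0.06 in O4AID, a difference of 0.35 that was not tested, and the O4AID interval of -0.02 to 0.14 includes 0. Against the 1.5 h library the O4AID value was -0.069.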

How the results depend on the processing

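The 10 genes kept the sign of their change in CreER at 36 h, and the 9 falls and 1 rise at that time kept their sign under every alternative run. Of 550 recomputed CreER values, 498 kept sign and side of the threshold, 23 passed it, 16 lost it and 13 changed sign. The sign changes were all of uncalled values. Those of *Ezh1* were -0.006 at 12 h and -0.017 from 24 to 36 h, both with total-count scaling. Those of *Cbx7* at 12 h were -0.004 (RLE scaling and DESeq2), -0.038 (total-count scaling), -0.001 (no filter), -0.003 (at least 10 counts in every library) and -0.023 and -0.034 without a single library (all such values -0.034 to 0.034). Those of *Cbx7* at 24 h were 0.001 with total-count scaling and 0.0 and 0.001 without a single library (all -0.048 to 0.001), and that of *Suz12* from 24 to 36 h was 0.046 without replicate 2 of 36 h (all -0.224 to 0.046). The counts of the 10 genes called became 1 at 12 h with no filter and 9 from 24 to 36 h with total-count scaling. Those of the other Polycomb genes became 1 (total-count scaling) and 2 (no filter) at 12 h, and 5 at 18 h and 8 from 24 to 36 h with DESeq2. Leaving out 1 library gave 0 to 1 (12 h) and 2 to 5 (24 to 36 h) of the 10 genes, and 0 to 2, 3 to 9, 10 to 18 and 6 to 13 other Polycomb genes at 12, 18, 24 and 24 to 36 h. In O4AID, a fold of 2 left 0 of the 10 genes at 6, 10 and 24 h, 1, 1 and 2 other Polycomb genes and 0, 1 and 3 target genes at those times. A pseudocount of 5 left 0, 1 and 3 target genes, and the 1.5 h reference 1 other Polycomb gene at 6 h. Of 190 recomputed O4AID values of the 10 genes, 139 were counted as the same and 51 as moved. At 24 h, for example, *Jarid2* went from -0.28 to -0.152 with total-count scaling and *Ezh2* from -0.28 to -0.103 against the 1.5 h library. The O4AID value of *Rnf2* at 24 h was 0.038 with total-count scaling. Apart from filters and folds that remove genes by construction, the cause was not tested. Replicate numbers did not pair the libraries, since deviations of same-numbered libraries correlated at -0.021 to 0.05. A replicate block gave 6 of the 10 genes at 18 h, with *Suz12* added (adjusted p = 0.0401), and 10 at 36 h, and changed no other call of the 10. O4AID calls have no replicate check.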
